A study of Mus musculus with 6 samples.

Results

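The genes described here are 10 transcripts that heart muscle is known to raise when it is overloaded or stretched: the fetal genes Nppa, Nppb, Myh7 and Acta1, and the mechanical stress genes Ankrd1, Ankrd2, Fhl1, Flnc, Xirp1 and Xirp2. They were chosen by name, as the probes whose transcript accession belongs to one of these symbols, and all 10 were found, out of 22815 genes with a symbol on the array. They are measured by 13 probes, 2 each for Nppa, Nppb and Flnc and 1 for each of the other 7. Every one of the 13 probes was well above background on all 6 arrays. RNA came from hearts of male C57BL6 mice aged 10 weeks, all starved for 16 h and then given lipopolysaccharide (LPS), the bacterial endotoxin, at 20 mg/kg into the peritoneum. One group of 3 mice received rhTM, which is recombinant human thrombomodulin, the endothelial receptor that turns thrombin towards anticoagulation, at 3 and 24 h, and the other group of 3 received saline at the same times. Hearts were sampled 30 h after LPS, with 1 one-colour array per mouse. No heart without LPS was analysed here, so each value sets rhTM plus LPS against saline plus LPS.

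In the fetal heart and again under load, cardiac myocytes make the natriuretic peptides, which are secreted into the blood and lower its volume and pressure, and switch to the myosin and actin isoforms of the fetal ventricle. A second set of proteins sits where force is borne. Ankyrin repeat and LIM proteins bind the elastic regions of titin, filamin C crosslinks actin at the Z-disc, and Xin proteins bind actin at the intercalated disc that joins one myocyte to the next.

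Of the 10 genes, 2 fell with rhTM and 0 rose at an adjusted p under 0.05 (limma across all genes, Benjamini-Hochberg), with 4 of the 10 at an unadjusted p under 0.05. The 2 were Fhl1 and Flnc, a titin-binding LIM protein and the muscle filamin. Among all 14701 genes tested, limma called 2.41% lower and 2.75% higher. The median change of the 10 genes was -0.39 on the log2 scale, against 0.01 over all genes tested, and 6 lay below 0 and 4 above. Nppa lay higher in every rhTM heart than in any saline heart but did not pass the test. At an unadjusted p under 0.05, 15.1% of all genes lay higher and 15.6% lower. In whole hearts fewer cells of a type and less RNA per cell cannot be told apart. A level is the log2 signal relative to the upper quartile (75th percentile) of its array. A change is the rhTM mean less the saline mean, given with its standard error (SE).

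The arrays differed in ways the groups do not explain. Slide 1 carried saline 1 and 2, while slide 2, from another scan, carried saline 3 beside all rhTM hearts. The upper quartile of the signal was 394 to 466 on slide 2 and 671 and 732 on slide 1, 54.8% to 62.8% of spots were well above background, and 0 were saturated. Across genes, saline 3 correlated at 0.965 with rhTM 3 and at 0.942 and 0.939 with saline 1 and 2. Each change is therefore also given within slide 2, as the mean of the rhTM hearts minus saline 3, a number that rests on 1 saline heart. A slide term in the fit gives the same number, and that fit called 3.83% of genes higher and 1.95% lower. A term for the replicate number called 2.43% higher and 1.65% lower. With saline 3 left out, the saline arrays are all on slide 1 and the rhTM arrays all on slide 2. Group and slide cannot be told apart in that fit, which called 3007 genes higher and 2808 lower. All 10 cardiomyocyte markers (such as Myh6, Tnnt2 and Ryr2) were well above background on every array, as the heart label implies.

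**Figure D1:**
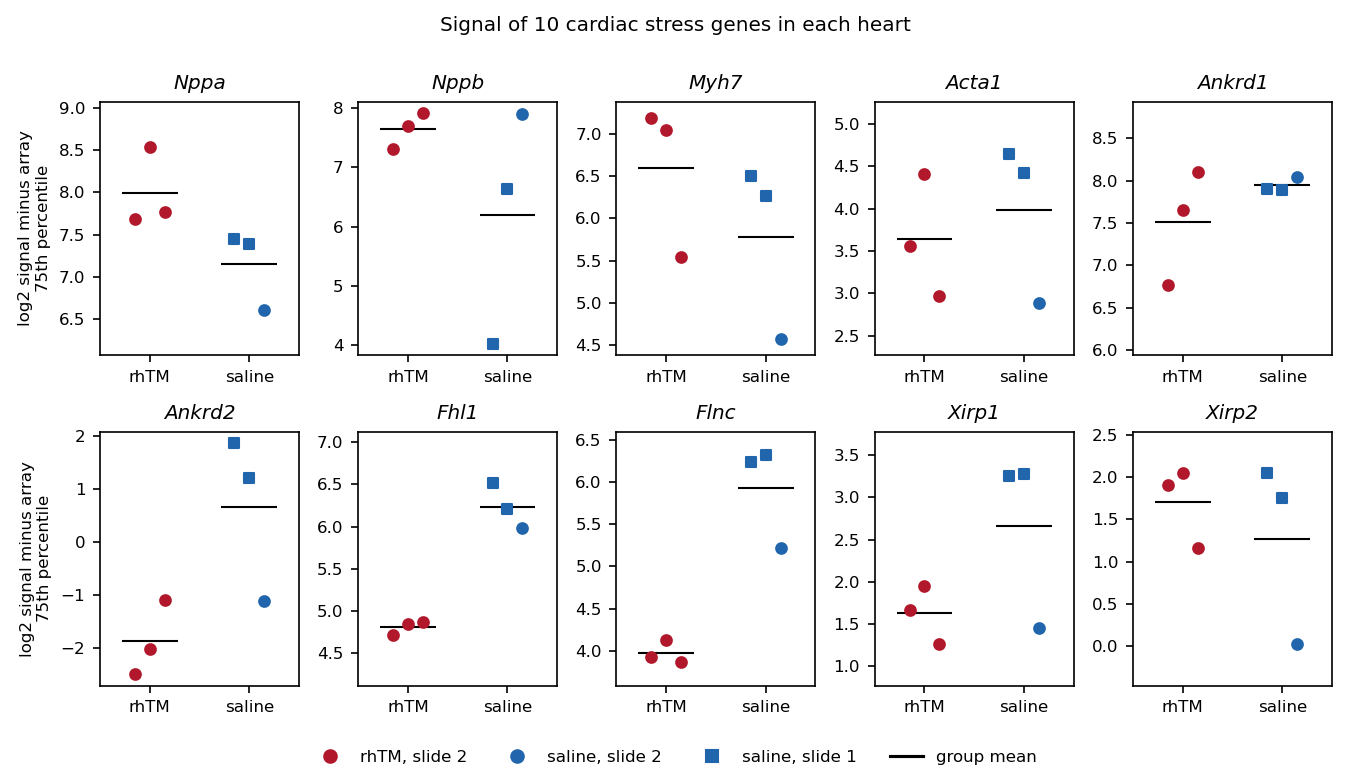
Signal of the 10 genes in each heart, as log2 signal minus the 75th percentile of the array, with rhTM left and saline right. Circles are arrays on slide 2 and squares arrays on slide 1, horizontal bars are means of 3 arrays, and the vertical axes differ between panels. Fhl1 and Flnc show a gap between the groups, while Ankrd2 (-1.10 in rhTM 3 and -1.11 in saline 3) shows none.

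Nppa encodes atrial natriuretic peptide and Nppb brain natriuretic peptide, and the genes are neighbours on chromosome 4. Their promoter windows are shown because the genes sit side by side and had unlike patterns over the 6 hearts. Each is the RefSeq sequence of build GRCm38.p6 from 250 bases before the start to 50 after it, on the plus strand, at chr4:148000472-148000771 for Nppa and chr4:147985650-147985949 for Nppb. Capitals mark the motifs searched, each only in the spelling given here. The M-CAT element of TEAD factors (spelled CATTCC) and the motif of GATA factors (spelled AGATAA) were searched on both strands. So was the CArG box of serum response factor (spelled CC, then 6 letters that are A or T, then GG). The TATA box (spelled TATAAA) was searched on the gene's strand. No 2 of the matches overlap.
Nppa: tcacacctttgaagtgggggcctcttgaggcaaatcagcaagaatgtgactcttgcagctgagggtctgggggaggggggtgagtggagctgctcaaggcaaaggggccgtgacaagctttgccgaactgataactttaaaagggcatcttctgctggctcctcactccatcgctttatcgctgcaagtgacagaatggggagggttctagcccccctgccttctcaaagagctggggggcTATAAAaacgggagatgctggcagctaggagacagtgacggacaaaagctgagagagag
Nppb: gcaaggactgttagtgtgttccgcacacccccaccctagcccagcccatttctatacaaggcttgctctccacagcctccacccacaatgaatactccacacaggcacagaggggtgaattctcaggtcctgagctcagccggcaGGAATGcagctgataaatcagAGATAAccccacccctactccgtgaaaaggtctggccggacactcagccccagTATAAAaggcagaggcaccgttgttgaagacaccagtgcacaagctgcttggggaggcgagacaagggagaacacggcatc
The Nppb window holds an M-CAT match on the other strand at -105 to -100 and a GATA-factor match at -84 to -79, counted with the start as base 1. The Nppa window holds neither of those spellings and no CArG box as spelled here, but it holds a TATA match, as does that of Nppb. Other spellings that these factors may bind were not searched. TGATAA, which differs from AGATAA only in its first letter, stands unmarked in the Nppa window and in the Nppb window. The contrast between the windows thus holds only for the spellings searched, and sites for these factors in the Nppa window are not excluded.

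Nppa had a level of 7.68, 8.54 and 7.77 in rhTM hearts 1, 2 and 3, against 7.45, 7.39 and 6.61 in saline hearts 1, 2 and 3. The groups did not overlap, which held in the same direction for 17.0% of all genes tested. The change was 0.85 ± 0.34 (SE, n = 3 and 3), a 1.80-fold higher signal with a 95% interval from 1.03 to 3.16, and it did not pass over all genes (limma adjusted p = 0.151, exact two-sided permutation p = 0.1). With 3 arrays against 3, 0.1 is the smallest p that the permutation test can give. Within slide 2 the change was 1.39 (limma adjusted p = 0.0824 in the slide fit). It was smaller with other processing, at 0.54 with quantile scaling and 0.47 with normexp (limma adjusted p = 0.459 and 0.534). The authors' deposited values gave 0.18 (limma adjusted p = 0.822), but their baseline per probe differs between slides, so this value is no check of the scaling. The other Nppa probe, at 6.18, 7.10 and 6.15 in rhTM hearts and 6.16, 6.09 and 5.04 in saline hearts, differed by 0.71 ± 0.41, and on it rhTM 3 lay just below saline 1.

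Nppb varied far more among saline hearts than among rhTM hearts. It lay at 7.31, 7.70 and 7.91 in rhTM hearts 1 to 3, against 4.03, 6.64 and 7.90 in saline hearts 1 to 3. Saline 1 was thus the low heart and saline 3 lay beside the highest rhTM heart. In the scanner's own units the signal was 73587, 96892 and 99362 in rhTM hearts and 11947, 66829 and 94518 in saline hearts. The change of 1.45 ± 0.91 did not pass (limma adjusted p = 0.308), its sign turned within slide 2 (-0.26), and it was 0.37 without saline 1. The other Nppb probe gave the same order in saline hearts (3.41, 5.98 and 6.63) and a change of 0.95 ± 0.79. Of the 7 neutrophil markers with a probe, 6 lay lower with rhTM and 1 higher, with a median change of -3.40 and 0 called (limma, 1 at an unadjusted p under 0.05). One of them, the neutrophil collagenase Mmp8, was at -4.24, -3.89 and 1.36 in rhTM hearts, against 0.19, 0.73 and 3.05 in saline hearts. The summed signal of the 7 was 104, 84.9 and 481 times the upper quartile in rhTM hearts, against 133, 212 and 999 in saline hearts. The receptor Csf3r was nearly flat over the arrays, and without it the sum was 6.95, 1.97 and 403 in rhTM hearts, against 56.1, 140 and 920 in saline hearts. In both groups heart 3 had the highest neutrophil sum and the highest Nppb, and the part of neutrophils in the Nppb values was not tested.

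Set against each other, the natriuretic peptides did not change by detectably different amounts. Nppb changed by 0.60 more than Nppa over all arrays (exact two-sided permutation p = 0.8, n = 3 and 3) and by -1.65 within slide 2. Genes that process or clear natriuretic peptides, or break down their messenger cGMP, were mostly not called. Of 14 listed 11 were tested, 1 was called higher and 0 lower (limma; 4 at an unadjusted p under 0.05), and the median change was -0.12. The called gene was Pcsk6, the convertase that activates corin, the protease that cuts the atrial peptide's precursor. It had a level of 3.38, 3.57 and 2.43 in rhTM hearts and 1.00, 1.72 and 0.63 in saline hearts, a change of 2.01 ± 0.40 (adjusted p = 0.0453), and it missed the threshold in the slide fit (limma adjusted p = 0.0559). Corin itself differed by -0.23 ± 0.28 and Npr3, the clearance receptor, by 0.44 ± 0.23, neither called (limma adjusted p = 0.588 and 0.248). Mme, neprilysin, which degrades natriuretic peptides, was well above background on 5 of the 6 arrays and was not called (limma adjusted p = 0.0745). It passed in the replicate fit (0.0392) and in the slide fit (0.0409), which rests on saline 3, its dimmest array.

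Myh7 encodes the slow beta-myosin heavy chain, the fetal form of the rodent ventricle. Its level was 7.19, 7.04 and 5.55 in rhTM hearts 1 to 3, against 6.50, 6.26 and 4.57 in saline hearts 1 to 3. The groups overlapped, and heart 3 was the lowest of its group in both. The change was 0.82 ± 0.65 (limma adjusted p = 0.411) and 2.02 within slide 2 (limma adjusted p = 0.117 in the slide fit). Between hearts of the same number the difference was 0.69, 0.78 and 0.97, all of one sign, and the replicate fit gave 0.82 ± 0.17 (limma adjusted p = 0.0655). Myh6, the fast alpha chain of the adult mouse ventricle, lay at 9.66, 9.63 and 9.39 in rhTM hearts and 8.81, 9.06 and 8.65 in saline hearts, so that its groups did not overlap. It differed by 0.72 ± 0.20 (limma adjusted p = 0.0787). The change of Myh7 exceeded that of Myh6 by 0.10 (exact two-sided permutation p = 0.8, n = 3 and 3), and by 1.11 within slide 2.

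Acta1, the skeletal alpha-actin that the fetal heart also makes, overlapped fully between the groups. It lay at 3.56, 4.42 and 2.96 in rhTM hearts 1 to 3, against 4.65, 4.42 and 2.89 in saline hearts 1 to 3. The change was -0.34 ± 0.56 (limma adjusted p = 0.705), and 0.76 within slide 2. Actc1, the adult cardiac actin, lay at 8.80, 8.92 and 7.10 in rhTM hearts and 7.96, 8.60 and 5.13 in saline hearts. The change of Acta1 minus that of Actc1 was -1.38 (exact two-sided permutation p = 0.2, n = 3 and 3), and -2.39 within slide 2. Adjusted over the 3 pairs compared, the permutation p was 0.8 for the peptides, 0.8 for the myosins and 0.6 for the actins. Between hearts of the same number, the actin difference was -1.94, -0.33 and -1.89, the myosin difference -0.16, 0.21 and 0.23, and the peptide difference 3.05, -0.09 and -1.15. The exact two-sided permutation p over these 3 pairs of hearts was 0.25, 0.5 and 1 in that order, and 0.25 is the smallest that 3 pairs allow. The array files give no probe sequences, so cross-hybridisation between these near-identical actins and myosins was not tested.

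Ankrd1 and Ankrd2 encode ankyrin repeat proteins that bind titin's N2A region and move to the nucleus under stretch. Ankrd1, the cardiac form, was at 6.76, 7.65 and 8.11 in rhTM hearts, against 7.90, 7.89 and 8.05 in saline hearts. The rhTM hearts were spread (SD 0.68) and the saline hearts tightly grouped (SD 0.09). The change of -0.44 ± 0.35 did not pass (limma adjusted p = 0.414), and it was -0.54 within slide 2. Without rhTM 1, the lowest heart, it was -0.07.

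Ankrd2, which is known mainly from slow skeletal muscle, had the largest difference in means of the 10 genes. It was at -2.49, -2.02 and -1.10 in rhTM hearts, against 1.86, 1.21 and -1.11 in saline hearts. The scanner signal was 82.3, 115 and 192 in rhTM hearts and 2665, 1557 and 183 in saline hearts. Saline 3 thus lay with rhTM 3 and apart from saline 1 and 2. Without saline 3 the groups share no slide, so group and slide cannot be told apart. The change of -2.53 ± 0.79 (5.77-fold lower) missed the threshold over all genes (limma adjusted p = 0.10), fell to -0.76 within slide 2 (limma adjusted p = 0.401 in the slide fit), and passed without saline 3 (-3.41, limma adjusted p = 0.00560). The summed signal of 12 skeletal muscle markers was 5.73, 5.69 and 4.29 times the upper quartile in rhTM hearts, against 8.74, 11.7 and 3.21 in saline hearts, where saline 3 was again the low heart. Of those markers 7 were well above background on all 6 arrays, while the defining fast myosin Myh1 and the actinin Actn3 were on none. The list did not move one way. Of the 9 tested, 5 lay higher and 4 lower with rhTM, and Tnnc2 and Mylpf were higher in every rhTM heart but not called (limma adjusted p = 0.119 and 0.0813). The fast myosin Myh4 was well above background on the 3 rhTM arrays only, and it entered the test through them. It was at -3.12, -2.92 and -3.85 in rhTM hearts, against -7.13, -7.34 and -5.91 in saline hearts. It was called higher (limma adjusted p = 0.0218), a call that rests on saline values not well above background. The calcium pump Atp2a1 led the sum, which without it was 2.6, 3.2 and 3.0 in rhTM hearts, against 3.1, 4.1 and 1.9 in saline hearts. The list holds the fast myosins Myh1, Myh2 and Myh4 and no slow myosin, so it does not stand for slow skeletal muscle. The part of skeletal muscle in the Ankrd2 values was not tested.

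**Figure D2:**
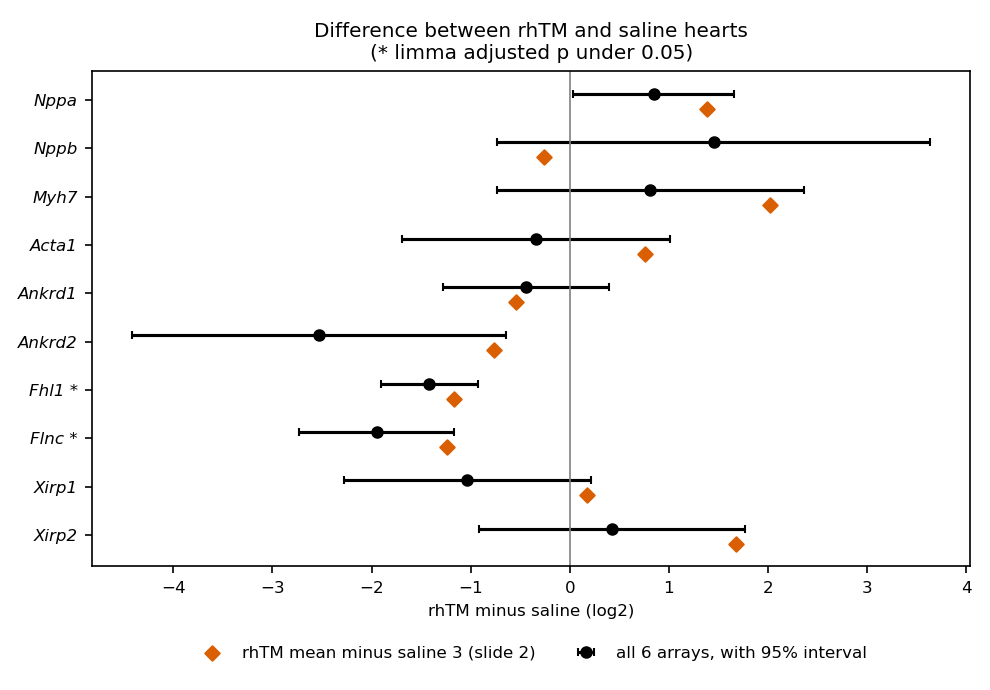
Difference between rhTM and saline hearts for each of the 10 genes, in log2 units. Black points are the limma estimate over all 6 arrays with its 95% interval, orange diamonds are the mean of the rhTM hearts minus saline 3 on the same slide, and stars mark an adjusted p under 0.05. Fhl1 (-1.42 and -1.16) and Flnc (-1.95 and -1.24) lie below 0 by both measures, while Nppb, Acta1 and Xirp1 change sign between them.

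Fhl1 and Flnc were the genes of the set that fell. Fhl1 encodes a protein built of LIM domains that binds titin's N2B region, and Flnc encodes filamin C, the actin crosslinker of striated muscle. Fhl1 is on chromosome X and Flnc on chromosome 6. Their promoter windows are shown because these are the called genes, from the same RefSeq table and with the same motifs in capitals, both on the plus strand, at chrX:56779433-56779732 for Fhl1 and chr6:29432903-29433202 for Flnc.
Fhl1: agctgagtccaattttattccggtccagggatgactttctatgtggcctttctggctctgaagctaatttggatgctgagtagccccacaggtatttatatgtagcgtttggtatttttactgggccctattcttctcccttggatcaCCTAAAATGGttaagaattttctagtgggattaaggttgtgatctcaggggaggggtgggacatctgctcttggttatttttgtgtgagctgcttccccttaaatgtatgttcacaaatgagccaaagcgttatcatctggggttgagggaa
Flnc: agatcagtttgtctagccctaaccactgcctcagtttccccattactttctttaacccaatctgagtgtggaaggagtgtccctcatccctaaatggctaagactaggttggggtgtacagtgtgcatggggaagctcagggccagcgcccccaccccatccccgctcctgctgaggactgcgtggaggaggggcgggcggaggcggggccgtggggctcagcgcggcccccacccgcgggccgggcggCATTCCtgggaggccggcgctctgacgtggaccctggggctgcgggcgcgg
The Fhl1 window holds a CArG box at -102 to -93, a motif found in 1.63% of the 32851 windows of the table. The Flnc window holds CATTCC across the start itself. A second window of each gene is known. That of Flnc overlaps the first and holds the same CATTCC, while that of Fhl1, at chrX:56786277-56786576, holds 0 matches to the motifs searched. Windows were found for 9 of the 10 genes (all but Xirp1), 12 windows in all. The M-CAT letters were in 6 of these 12 windows (Nppb, Myh7, Acta1, Ankrd1 and both of Flnc), against 14.7% of all windows, and the CArG box in 2 (Acta1 and Fhl1). AGATAA, the only spelling of the GATA-factor motif searched, was on either strand in 2 of the 12 windows, against 11.2% of all. TATAAA was in 4 of the 12, against 8.32% of all.

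Fhl1 was at 4.72, 4.85 and 4.88 in rhTM hearts 1 to 3, against 6.52, 6.21 and 5.98 in saline hearts 1 to 3. All rhTM hearts lay within a narrow band below every saline heart, on either slide. The scanner signal was 12223, 13449 and 12102 in rhTM hearts and 67106, 49617 and 24887 in saline hearts. Fhl1 fell by 1.42 on the log2 scale (change -1.42 ± 0.20, 2.67-fold lower, limma adjusted p = 0.0268, exact permutation p = 0.1), and the change within slide 2 was -1.16 (limma adjusted p = 0.0409 in the slide fit). Leaving out each array in turn kept the change between -1.55 and -1.28. The call was lost without saline 1 (limma adjusted p = 0.118), saline 2 (0.0733), rhTM 1 (0.147) or rhTM 2 (0.163). It held without rhTM 3 (limma adjusted p = 0.0366) and without saline 3 (0.00322), where group and slide cannot be told apart.

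Flnc was at 3.92, 4.14 and 3.86 in rhTM hearts 1 to 3, against 6.24, 6.32 and 5.22 in saline hearts 1 to 3. Saline 3 was the lowest saline heart and still lay above every rhTM heart. The scanner signal was 7034, 8196 and 6003 in rhTM hearts and 55178, 53536 and 14656 in saline hearts. Flnc fell by 1.95 on the log2 scale (change -1.95 ± 0.33, 3.86-fold lower, limma adjusted p = 0.0352, exact permutation p = 0.1), and the change within slide 2 was -1.24 (limma adjusted p = 0.0325 in the slide fit). Its second probe, much dimmer, gave -0.44, -0.21 and -0.67 in rhTM hearts and 1.85, 1.96 and 0.59 in saline hearts. The 2 probes thus gave almost the same change, -1.90 ± 0.39 for the dimmer one, which just missed the threshold over 30322 probes tested (limma adjusted p = 0.0526), of which 2.24% were called higher and 1.33% lower. Leaving out each array in turn kept the change of Flnc between -2.30 and -1.75. Its call was lost without saline 1 (limma adjusted p = 0.138), saline 2 (0.0911), rhTM 1 (0.166), rhTM 2 (0.170) or rhTM 3 (0.0554). The call held only without saline 3 (limma adjusted p = 0.00128), where group and slide cannot be told apart.

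The groups also lay apart, with rhTM lower, in 18.7% of all genes tested, so that the gap in Fhl1 and Flnc is by itself a common pattern on these arrays. Among smooth muscle markers, Acta2 alone of the 5 tested was called lower, and the list's median change was -0.03. The summed signal over 6 genes was 59.4, 66.7 and 50.7 times the upper quartile in rhTM hearts, against 115, 156 and 85.1 in saline hearts. Of the 6 markers 5 were well above background on all 6 arrays and Lmod1 on none. Acta2, smooth muscle actin, gave the largest share of the sum on every array, while Tagln, Cnn1, Myh11 and Smtn overlapped between the groups. Without Acta2 the sum overlapped too, at 33.3, 34.5 and 20.8 in rhTM hearts and 37.1, 40.7 and 14.7 in saline hearts. The cardiomyocyte sum overlapped between the groups, from 2757 to 3974 in rhTM hearts and from 1976 to 2800 in saline hearts. Of its 10 markers 7 lay higher and 3 lower with rhTM, with a median change of 0.53. Limma called 1 of them higher and 0 lower. The part of either cell type in the Fhl1 and Flnc values was not tested.

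**Figure D3:**
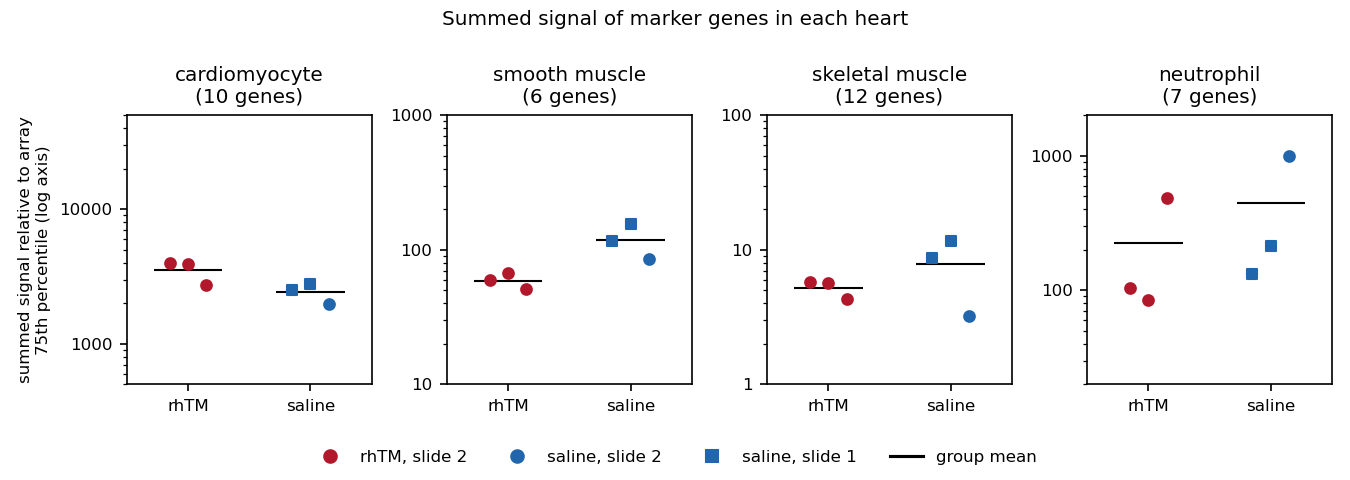
Summed signal of marker genes of 4 cell types in each heart, as multiples of the array's 75th percentile on a log axis, with rhTM left and saline right. Circles are slide 2, squares slide 1, and bars are means of 3 arrays. The smooth muscle sum (50.7 to 66.7 in rhTM hearts, 85.1 to 156 in saline hearts) separates the groups through Acta2 alone, and the sums of the other lists overlap.

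Paralogs of the called genes did not all share their direction. Fhl2, the LIM protein most abundant in heart muscle, was at 8.98, 8.79 and 8.60 in rhTM hearts, against 7.46, 7.86 and 6.69 in saline hearts, so that it lay higher in every rhTM heart. Its change of 1.45 ± 0.32 narrowly missed the threshold (limma adjusted p = 0.0538) and passed in the slide fit (2.10, limma adjusted p = 0.0262). Fhl3 differed by 0.06 ± 0.24 (limma adjusted p = 0.886). Flna, the broadly expressed filamin, fell by 1.11 (-1.11 ± 0.19, limma adjusted p = 0.0379). It was at 3.37, 3.24 and 3.64 in rhTM hearts, against 4.41, 4.65 and 4.53 in saline hearts, and within slide 2 it differed by the same -1.11. Flna missed the threshold in the slide fit (limma adjusted p = 0.0551) and in the replicate fit (limma adjusted p = 0.0538).

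Xirp1 and Xirp2 encode the Xin proteins, which bind actin, and in the case of Xirp1 also filamin C, at the intercalated disc. Xirp1 was at 1.66, 1.95 and 1.27 in rhTM hearts, against 3.25, 3.28 and 1.46 in saline hearts. Saline 1 and 2 stood well above the rhTM hearts and saline 3 among them. The change was -1.03 ± 0.52 over all arrays (limma adjusted p = 0.222) and 0.17 within slide 2. Without saline 3 it was -1.64 and passed (limma adjusted p = 0.00626), but there group and slide cannot be told apart. Xirp2 was at 1.91, 2.04 and 1.16 in rhTM hearts, against 2.05, 1.75 and 0.02 in saline hearts. Here saline 3 was the low heart, and the change was 0.43 ± 0.56 (limma adjusted p = 0.621) over all arrays, 1.68 within slide 2 (limma adjusted p = 0.0664 in the slide fit) and -0.20 without saline 3.

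**Figure D4:**
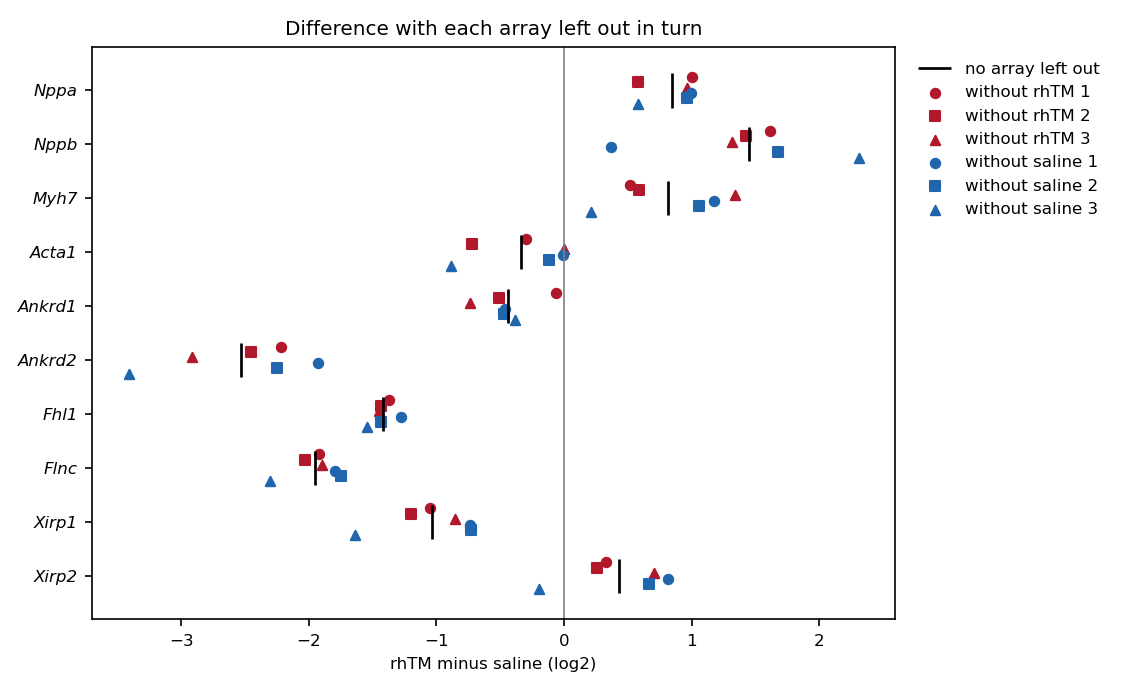
Difference between rhTM and saline hearts for the 10 genes in log2 units, with no array left out (black bars) and with each array left out in turn (red symbols rhTM arrays, blue symbols saline arrays). Fhl1 stays between -1.55 and -1.28 and Flnc between -2.30 and -1.75, while Nppb ranges from 0.37 without saline 1 to 2.31 without saline 3.

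Among 25 binding partners of filamin and Xin proteins, all tested, limma called 1 higher and 2 lower, with a median change of -0.24. The 2 lower were Flna and Tln1, the broadly expressed talin that links integrins to actin. Tln1 was at 3.77, 3.91 and 3.98 in rhTM hearts, against 5.07, 5.31 and 4.82 in saline hearts (change -1.18 ± 0.20, limma adjusted p = 0.0365). The gene called higher was Tln2, the talin of muscle costameres, at 1.76, 1.96 and 1.06 in rhTM hearts and -0.35, 0.13 and -0.30 in saline hearts (1.77 ± 0.29, limma adjusted p = 0.0343). The talins thus lay on opposite sides of 0, as did Fhl1 and Fhl2. In the slide fit neither talin passed (limma adjusted p = 0.0551 for Tln1 and 0.0588 for Tln2), and in the replicate fit Tln1 did not (0.0524). Bag3, the co-chaperone that clears damaged filamin, differed by 0.07 ± 0.21 and was not called (limma adjusted p = 0.835).

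Of 22 other titin and Z-disc genes, all tested, limma called 0 (4 at an unadjusted p under 0.05), with 12 above 0 and 10 below and a median of 0.08. The lowest p values were those of Fhl2 and of Pdlim3, a PDZ and LIM protein of the Z-disc (-1.15 ± 0.26, limma adjusted p = 0.0561). In the slide fit 4 of the 22 were called higher. Ankrd23, the third titin-binding ankyrin protein of this family, differed by -0.29 ± 0.28 (limma adjusted p = 0.497).

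Among 18 myofilament genes, all tested, 15 lay above 0 and 3 below, with a median change of 0.39. One was called, Acta2, which fell by 1.55 (-1.55 ± 0.24, limma adjusted p = 0.0323) and was not called in the slide fit (-1.26, limma adjusted p = 0.0605). It was at 4.71, 5.01 and 4.91 in rhTM hearts, against 6.29, 6.85 and 6.14 in saline hearts. Mybpc3, not called over all arrays, passed as higher in the slide fit (2.13), with saline 3 as its lowest heart.

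The next list holds 15 transcripts that YAP with TEAD, or MRTF with serum response factor, are known to drive under mechanical tension, and 7 of these factors themselves. Of the 22 genes 18 lay below 0, with a median change of -0.54. The transcripts they drive were 13 of 15 below 0 (median -0.79) and the factors 5 of 7 (median -0.35). Of the 22 limma called 0 higher (8 of the 22 at an unadjusted p under 0.05 in either direction) and 2 lower. The LIM protein zyxin, Zyx, was at 3.43, 3.61 and 3.65 in rhTM hearts and 4.61, 4.55 and 4.39 in saline hearts (-0.95 ± 0.18, limma adjusted p = 0.0421). The calponin Cnn2 was at 0.91, 1.16 and 1.29 in rhTM hearts and 2.05, 2.59 and 2.08 in saline hearts (-1.13 ± 0.23, limma adjusted p = 0.0457). Neither passed in the slide fit or in the replicate fit (limma adjusted p = 0.0591 and 0.0554 in the replicate fit). Other genes of the list, not called over all arrays, passed as lower in the slide fit, which rests on saline 3. They were Ccn1 (-1.55), Egr1 (-1.87) and Thbs1 (-3.58), and in each saline 3 was the highest heart.

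Of 23 cardiac transcription regulators, all tested, limma called 1 higher and 0 lower, with 7 at an unadjusted p under 0.05 and a median change of -0.14. The called gene was Hdac9, a class IIa histone deacetylase that restrains MEF2 factors. It was at 1.12, 0.63 and 0.21 in rhTM hearts, against -0.92, -1.03 and -0.90 in saline hearts (1.61 ± 0.26, limma adjusted p = 0.0343). Hdac9 did not pass in the slide fit. Klf15 (1.25) and Rcan1 (-1.04), not called over all arrays, passed there, with saline 3 the lowest heart for Klf15 and the highest for Rcan1.

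Of 23 ligands and receptors of hypertrophic signalling 20 were tested, limma called 0 higher and 2 lower (9 at an unadjusted p under 0.05), and the median change was -0.43. Osmr, the oncostatin M receptor, was at 1.20, 1.11 and 2.22 in rhTM hearts and 3.23, 3.25 and 3.34 in saline hearts (-1.76 ± 0.32, limma adjusted p = 0.0414). Ece1, which releases active endothelin, was at 3.03, 3.11 and 3.30 in rhTM hearts and 4.12, 4.16 and 4.04 in saline hearts (-0.96 ± 0.17, limma adjusted p = 0.0402). Neither passed in the slide fit, and Ece1 did not in the replicate fit (limma adjusted p = 0.0563). Ednrb, not called over all arrays, passed as lower in the slide fit (-1.20), with saline 3 as its highest heart, as did Gdf15, described below.

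**Figure D5:**
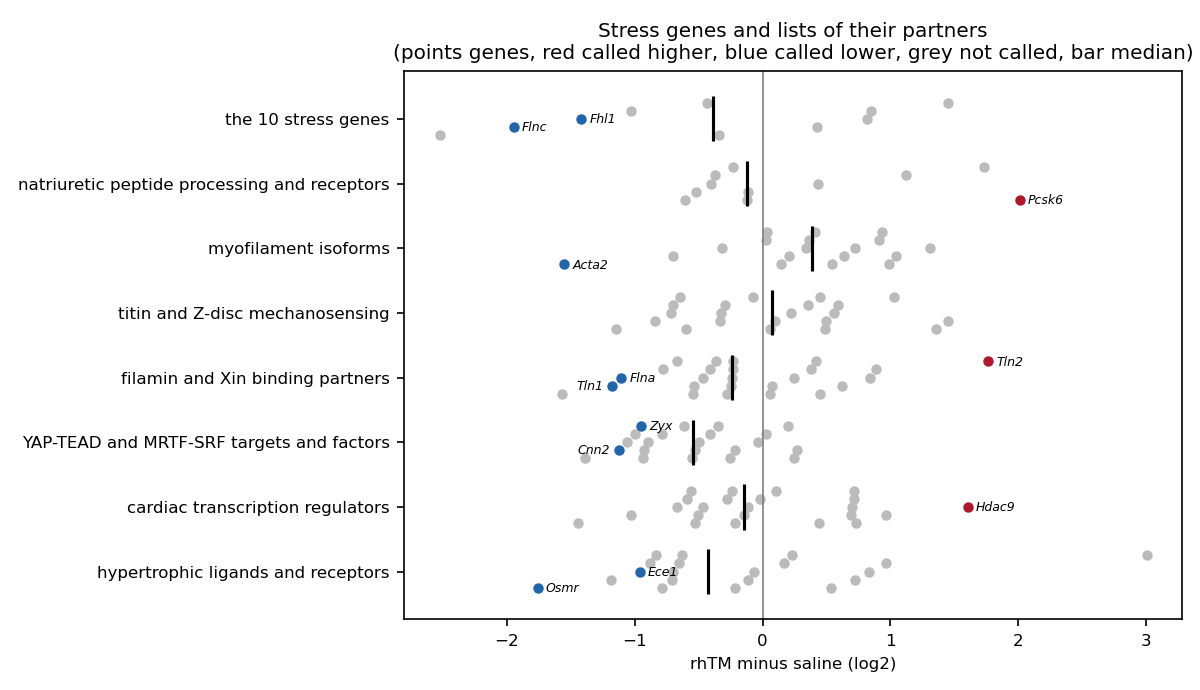
Change (rhTM minus saline, log2) of the 10 stress genes and of the tested genes in 7 lists of their partners, with each list's median as a black bar. Red genes were called higher and blue genes lower by limma at an adjusted p under 0.05. The list medians run from -0.54 (YAP-TEAD and MRTF-SRF targets and factors) to 0.39 (myofilament isoforms).

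The genes most like each of the 10 over the 6 arrays were found among 14700 others by Pearson's r, as a description of 6 points that share slide and group. For Fhl1 they were Tmem127, Ubxn4 and Foxp4 (r from 0.998 to 0.999), and 545 genes had an r over 0.95. For Flnc they were Zzef1, Zc3h10 and Unc45a (r from 0.998 to 0.999), with 673 genes over 0.95. Of these, Ubxn4 (-1.20 ± 0.19) and Foxp4 (-0.91 ± 0.17) were called lower (limma adjusted p = 0.0330 and 0.0430). Tmem127, Zzef1, Zc3h10 and Unc45a were not called (limma adjusted p = 0.106, 0.0529, 0.119 and 0.0680). Nppa had fewer close matches, 14 over 0.95, led by Atp6v1d, 1110020A21Rik and Pyroxd1 (r = 0.977, 0.977 and 0.976), and Ankrd1 the fewest, 11, led by Fntb, Rgs11 and Emb (r = 0.987, 0.987 and 0.984). Nppb was closest to Frat2, Nt5e and Cdh8, Myh7 to Kbtbd3, Dip2b and Trip12, and Acta1 to Xrcc3, Map4 and C1qtnf1. Ankrd2 was closest to Sh2d3c and to the class I histocompatibility genes H2-Q7 and H2-Q2 (r = 0.997 for each). Xirp1 was closest to Aco1, Zfp276 and Nomo1, and Xirp2 to Neurl2, Tarsl2 and Acsf3.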

How the data were processed

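The authors deposited 6 one-colour Agilent scanner files of spot intensity, made with Agilent Feature Extraction. The file headers give 10.7.3.1 as its version and mm9 as the build of the grid, and 9.1 stands in the submitters' processing notes. The processed signal is a background-corrected intensity, deposited unscaled. A further table deposited by the authors has log2 values, with scale, centring and baseline not given in the sources used here. Checked against the scanner values of 55937 probes with 1 spot, it is the scaled log2 signal minus a baseline per probe that differs between slides (SD 0.825 between saline 1 and saline 3), so it served only as an alternative. Its column medians were -0.08, 0.03 and 0.09 for rhTM 1 to 3 and -0.02, -0.16 and 0.10 for saline 1 to 3.

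Here the log2 processed signal was taken relative to the array's 75th percentile. Spots of a probe were averaged, 368 of 56605 probes with outlier flags were dropped, and transcript accessions were named through a RefSeq table (GRCm38.p6), which named 32789 probes. Each gene took its brightest probe on average, and limma tested the 14701 genes detected (well above background) throughout 1 group or both, version 3.58.1 in R 4.3.3, checked on simulated data. All 6 arrays were fitted with group as the only term. Pairs of genes were compared with exact permutation tests. Alternatives were quantile and median scaling, normexp (offset 50) on the median spot signal, since the files hold no mean signal, other probe filters, probe means, array weights, the deposited table, the slide or the replicate number as a block, and each array left out. Marker sums without their leading gene, the split of targets from factors and the same-number test of gene pairs were added after seeing the data. Slides were read from the array identifiers.

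Same-numbered arrays deviated together across genes (r = 0.319, 0.235 and 0.372), although saline 1 also correlated with rhTM 2 at 0.314 and the labels name no shared litter or day. All p-values are unpaired, and those of the fit with a replicate block (the replicate fit) or over same-numbered hearts are named where given. The genes and lists were chosen with earlier results of these data known. Named genes are the 10 stress genes, their 3 closest genes, the called genes of each list (or its 2 lowest p) and Myh6 and Actc1. Corin, Npr3, Mme, Fhl3, Bag3, Ankrd23, Mmp8, Csf3r, Atp2a1, Tnnc2, Mylpf, Myh4, Lif, Pde5a and Gdf15 were chosen after their values were seen. So were Ccn1, Egr1, Thbs1, Mybpc3, Klf15, Rcan1 and Ednrb, named for the slide fit. Precision is limited by having 3 arrays per group.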

Additional observations from a re-analysis of the deposited data

How the results depend on the processing

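Fhl1 and Flnc kept their direction in every setting tried. They kept their calls with quantile or median scaling, normexp, probe means, all-array detection and both blocks. They were also called with array weights and with the deposited table, but those settings called a large part of all genes. A kept call there says little about either gene. With no filter on dim probes both calls were lost (limma adjusted p = 0.0622 and 0.0712, 0 of the 10 genes called), as 22815 genes were tested. Genes called lower among the 10 numbered 0 to 4 with each array left out, 4 with array weights and 2 in each other setting that filtered dim probes. Array weights added Ankrd2 and Xirp1 to these (limma adjusted p = 2.72e-04 and 0.00130) and called 2 higher, Nppa (0.99, 0.0186) and Nppb (2.50, 0.00932). Over all 14701 genes tested, array weights called 4664 higher and 4581 lower, so such calls were common in that setting. The deposited table, whose baseline per probe differs between slides, called 2 higher, Myh7 (2.17, limma adjusted p = 0.0155) and Xirp2 (1.13, 0.0409). Over all 14701 genes that table called 2205 higher and 2314 lower. It gave 0.42 for Nppb, -0.32 for Xirp1 and -1.53 for Ankrd1, none called. Ankrd1 was -0.74 with quantile scaling and -0.73 with normexp. Over all genes, limma called 405 higher and 355 lower, 132 and 19 with no filter, 2205 and 2314 with the deposited table, 4664 and 4581 with array weights, and 0 to 3007 and 0 to 2808 with each array left out. It called 0 and 0 without rhTM 1 (1271 and 1314 at an unadjusted p under 0.05), so no call above holds there. The share of calls that were higher was 53.3%, against 64.3% with median centring, 66.2% with the slide block, 45.8% with quantile scaling, 43.9% with normexp and 46.2% with all-array detection. In the fit with a replicate block 357 and 242 were called, Fhl1 and Flnc among them (limma adjusted p = 0.0465 and 0.0411), and among the named genes no call changed besides those given above. The slide as a block reversed Acta1 (0.76), Nppb (-0.26), Xirp1 (0.17) and the Nppb minus Nppa difference (-1.65). The deposited table reversed Acta1 (0.42). With each array left out, Acta1 ranged from -0.89 to 0.0021, Xirp2 from -0.20 to 0.82, Myh7 minus Myh6 from -0.41 to 0.54 and Nppb minus Nppa from -0.63 to 1.73. The cause of these reversals was not tested.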

Other observations

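Lif, the interleukin 6 family cytokine that can enlarge cultured cardiac myocytes, split by slide. It was at -0.56, -0.72 and -0.59 in rhTM hearts, against -5.63, -4.77 and -0.47 in saline hearts, and was well above background on 5 of the 6 arrays and not called (limma adjusted p = 0.162). Pde5a, a phosphodiesterase that degrades cGMP, the messenger of natriuretic peptides, had the same shape, at 4.24, 4.26 and 4.17 in rhTM hearts, against 2.62, 2.51 and 4.17 in saline hearts (limma adjusted p = 0.15). In both genes saline 3, on the slide of the rhTM hearts, lay beside them, and the part of the slide was not tested. Gdf15, a stress cytokine, was instead high in the hearts numbered 3, at -0.43, -0.33 and 0.85 in rhTM hearts, against -0.26, -0.18 and 3.17 in saline hearts, and was not called over all arrays (limma adjusted p = 0.545), but was called lower in the slide fit (-3.14, limma adjusted p = 0.0405), which rests on saline 3.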
